A study of Mus musculus with 4 samples.

Results

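The PYHIN gene cluster of mouse chromosome 1 was examined through the accessible regions that lie between 173.3 and 174.1 Mb (mm10), a window of 800 kb. Every deposited region that starts and ends inside that window was taken, whether or not a gene was linked to it. This gave 7 of 35019 regions. They were linked by the authors to Aim2, Cadm3, Ifi204, Mnda and Olfr433, and 2 carried no gene. The window was chosen with the difference between the groups at Ifi204 and Mnda already known, so the values that compare the groups are given below as a description, with no test.

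The assay was ATAC-seq, in which the transposase Tn5 cuts and tags open DNA, applied to quiescent satellite cells, the resting stem cells of skeletal muscle. The cells were sorted by flow cytometry from mice labelled muscular dystrophy (mdx), which lack functional dystrophin, and from mice labelled wild type. There were 2 libraries per group, numbered 1 and 2 in the titles. The labels give no strain, age, sex, muscle or transgene for either group, and nothing ties a library to an animal. The design text speaks of 3 mice per condition. The series title asks about epigenetic suppression of necroptosis, a form of regulated cell death, in stem cells of dystrophic muscle. Values are scaled reads per region. Where a pair of values is given for a group, replicate 1 comes first. Errors are SD with n = 2 libraries per group.

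PYHIN proteins pair a pyrin domain, which binds other pyrin domains, with a HIN domain, which binds DNA. Aim2 assembles an inflammasome on DNA in the cytosol, while Ifi204 and its relatives act in DNA sensing and in the control of transcription and growth. Many genes of the family are induced by interferon through the interferon-stimulated response element, a promoter site bound by STAT and IRF factors, and they are best known from macrophages and other immune cells. The family arose by tandem duplication, and its members and their promoters resemble one another.

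RefSeq (GRCm38.p6) places 28 genes over the window, 20 of them protein coding, and 13 of the 28 are PYHIN genes. A linked region was present for 3 of the 13: Aim2, Ifi204 and the gene the authors call Mnda. The deposited position of Mnda is that of RefSeq Ifi211, for which Mnda is a synonym. The 2 regions with no gene linked lay inside Ifi202b and inside Aim2. The RefSeq model of Aim2 is long and also covers the Aim2 and Cadm3 regions. Ifi206, Ifi214, Ifi213, Ifi209, Ifi208, Ifi207, Mndal, Ifi203 and Ifi205 overlapped 0 of the 7 regions.

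The promoters of the family carry the response element more often than promoters at large, a property the choice of the window did not use. RefSeq promoters, from 250 bases before to 50 bases after the start, were present for 12 of the 13 genes in 14 entries, with none for Ifi204. The letters GAAA, then 2 bases of any kind, then GAAA, on either strand, occurred in 10 of these 14 promoters and in 9 of the 12 genes, against 3.44% of all 32851 promoters. As copies of one another, these promoters are not independent of each other. Aim2, Ifi209 and Ifi202b had no match in this window. The elements are shown because their letters and flanks are alike between most of these genes. The first Mndal line differs from the others in both. Each line gives 5′ to 3′ on the gene's strand the match in capitals with 10 bases on either side:
Ifi206, chr1:173491339-173491368, minus strand: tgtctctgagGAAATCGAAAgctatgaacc
Ifi214, chr1:173536017-173536046, minus strand: agtctctgagGAAATCGAAAgcgatgcact
Ifi213, chr1:173599326-173599355, minus strand: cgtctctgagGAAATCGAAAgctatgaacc
Ifi208, chr1:173673597-173673626, plus strand: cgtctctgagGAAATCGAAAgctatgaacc
Ifi207, chr1:173741831-173741860, minus strand: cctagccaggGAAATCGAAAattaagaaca
Mndal, chr1:173879993-173880022, minus strand: ttttgagtcaTTTCTCTTTCtactcaaaac
Mndal, chr1:173880204-173880233, minus strand: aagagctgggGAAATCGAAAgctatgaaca
Ifi211 (Mnda), chr1:173913064-173913093, minus strand: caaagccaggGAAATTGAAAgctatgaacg
Ifi203, chr1:173942508-173942537, minus strand: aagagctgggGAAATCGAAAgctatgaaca
Ifi205, chr1:174031870-174031899, minus strand: ccaggccaggGAAATTGAAAgctatgaaca

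The exact letters GAAATCGAAA stood in 7 of these 10 promoters. GAAATTGAAA stood in 2, those of Ifi211 and Ifi205. Ifi205 holds a second match that begins 23 bases after the start and is not shown. In Ifi206, Ifi207, Ifi211, Ifi203 and 1 promoter of Mndal the match began between 41 and 35 bases before the start. A match describes letters and does not show a bound factor.

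**Figure D1:**
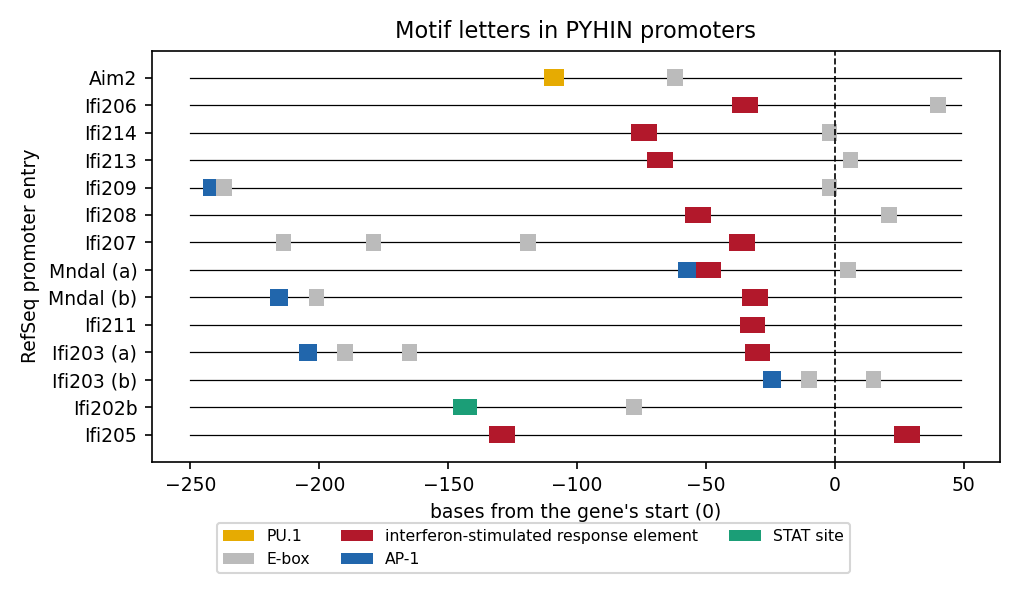
Positions of the searched motif letters in the 14 RefSeq promoter entries of PYHIN genes, in bases from the gene's start (horizontal axis, dashed line at 0), with 1 row per entry and the letters (a) and (b) for genes with 2 entries. Red bars, the interferon-stimulated response element, are present in 10 of the 14 entries.

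Other motif letters were searched in the same promoters, on both strands. The STAT site TTCNNNGAA was found in 1 of the 14 (Ifi202b) and in 8.30% of all promoters. The PU.1 letters GAGGAAGT, for a factor of myeloid cells, were found in 1 (Aim2) against 3.20%. The AP-1 letters TGANTCA were found in 5, from 3 genes, against 7.81%. The E-box CANNTG, the site of myogenic and other helix-loop-helix factors, was found in 12 against 72.3%. In 1 promoter of Mndal the AP-1 letters end where the response element begins, and in Ifi209 the AP-1 and E-box letters overlap.

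Whole promoters of 2 genes lay inside regions of the window, so the signal there covers them in full. Their RefSeq sequences are shown for the contrast between a PYHIN promoter and its neighbour that is no member of the family. The first, 250 bases before the start of Ifi211 (Mnda) at chr1:173913047-173913296, minus strand, has the response element in capitals. The second, of Cadm3 at chr1:173367696-173367945, minus strand, has the AP-1 letters in capitals:
Ifi211 (Mnda): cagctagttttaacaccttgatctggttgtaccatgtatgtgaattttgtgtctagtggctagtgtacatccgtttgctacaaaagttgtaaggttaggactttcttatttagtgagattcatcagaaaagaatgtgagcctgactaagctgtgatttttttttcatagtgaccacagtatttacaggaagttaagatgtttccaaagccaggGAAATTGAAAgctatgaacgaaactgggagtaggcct
Cadm3: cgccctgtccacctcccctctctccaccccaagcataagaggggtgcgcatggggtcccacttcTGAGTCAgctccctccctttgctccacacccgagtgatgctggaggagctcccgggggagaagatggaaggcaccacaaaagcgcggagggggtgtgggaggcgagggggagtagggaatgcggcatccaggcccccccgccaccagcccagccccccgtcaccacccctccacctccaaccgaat

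Over its 300 bases the Ifi211 promoter held 41.7% G and C and 3 CpG. The Cadm3 promoter held 66.7% and 17 CpG. The medians over all promoters were 52.7% and 7. None of the PYHIN promoters exceeded 49.3% G and C, the value of Aim2.

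Because the copies are alike, a short read can match more than 1 of them, and how such reads were treated is not given in the sources used here. Of the 265 stretches of 36 bases in the Ifi211 promoter, 17 also occurred in another gene's promoter, that of Ifi205. For Aim2, Cadm3, Ifi207, Ifi202b and Olfr433 this number was 0. It was 179 for Ifi206, 177 for Ifi213 and 224 for Ifi208, which share letters among themselves. For Ifi214 and Ifi209 it was 107 each, and for Mndal and Ifi203 it reached 138. The highest shares of repeated letters were in genes that overlapped 0 regions, though Ifi207 and Ifi205, at 0 and 17, overlapped none either. What part this had in the missing regions was not tested. Only promoters were compared, so copies elsewhere in the genome are not counted. Values for this family are uncertain to that extent.

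Beside the members, some facts of the libraries matter here. The deposited values were read as reads multiplied by 1 factor per library and rounded. Dividing by the factors of 1.38, 1.16, 1.22 and 0.492 gave 3208487 and 3607633 reads over all regions for mdx, against 3693092 and 8165826 for wild type. Of nuclear scaled reads, promoters held 52.76% and 57.21% for mdx against 64.15% and 61.09% for wild type. A deposited value of 1 in wild type replicate 2 stands for about 2 reads, so its low values are the most precise.

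Accessibility over the window was many times higher in both mdx libraries than in both wild type libraries. The 7 regions together summed to 773 and 500 in mdx, against 73 and 97 in wild type. In 7 of 7 regions both mdx libraries lay above both wild type libraries, which was so in 25.8% of all regions. Of the 7 regions, 6 reached a value of 10 in 2 or more libraries and entered the fit, and 5 of the 6 passed as higher in mdx and 0 as lower. The threshold was an adjusted p under 0.05 in limma over 33161 regions, and 3.30% of those passed as higher and 0.881% as lower, 4.18% in all. Among promoter regions of the table the shares were 0.691% higher and 1.73% lower. Of the 5 promoter regions of the window 4 passed as higher. Nothing is read from these counts, since the window was chosen on this contrast. A further limit is that 3 of the 6 entered the fit through the mdx libraries alone and so had to differ. On the log2 scale the median difference of the 6 was 4.09, and 3.83 with the region at 0 in wild type set at its lower bound, against -0.01 for all tested regions. More open chromatin per cell and more cells with open chromatin cannot be told apart in such bulk samples.

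**Figure D2:**
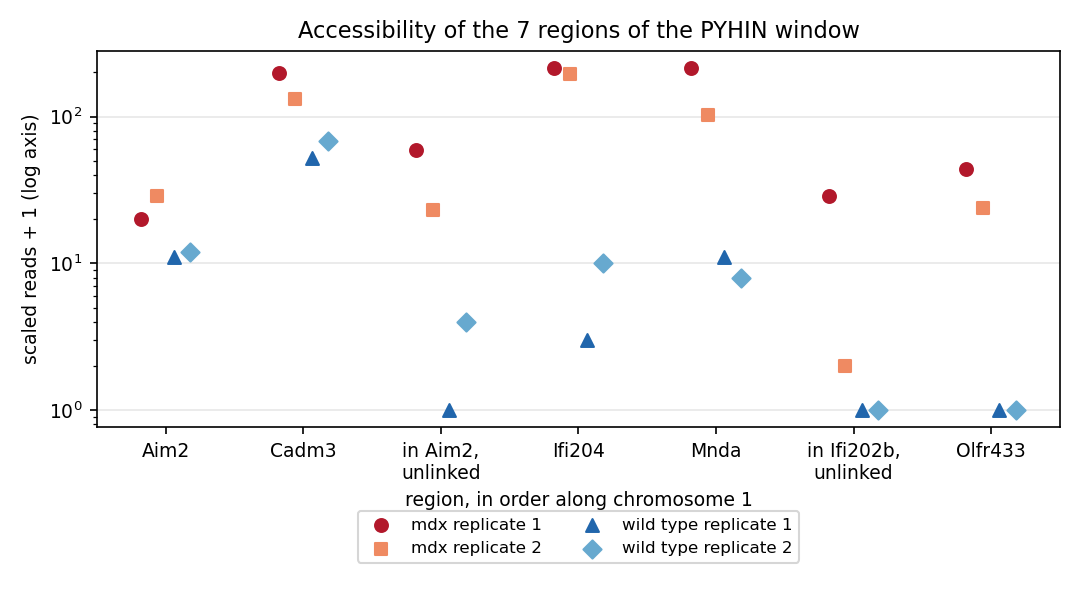
Scaled reads plus 1 (vertical log axis) in the 7 regions of the window, in order along chromosome 1, with 1 point per library. In each region the 2 mdx points lie above the 2 wild type points, and Ifi204 and Mnda show the widest gaps at high mdx levels.

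Ifi204 (ENSMUSG00000073489), the mouse counterpart of the human DNA sensor IFI16, had the most accessible region of the window in mdx. This region, chr1:173766949-173767493, is 544 bases wide and centred 302 bases from the gene's start, outside the deposited gene body. The start of the RefSeq model, at 173767069, lies inside it. It held 214 and 195 in mdx, against 2 and 9 in wild type. These correspond to 155 and 168 recovered reads for mdx, 2 and 18 for wild type. The mdx libraries were close to each other, and the lowest of them was 21.7 times the highest wild type library. Means were 204.5 ± 13.4 in mdx and 5.5 ± 4.95 in wild type, a 37.2-fold difference. The log2 fold change was 5.23 with SE 0.53, at rank 7 of the 33161 tested regions from the highest. In mdx the region exceeded 86.8% and 85.5% of all regions of its library, and in wild type 3.3% and 5.3%. Leaving out wild type replicate 1 gave a log2 fold change of 4.36 and leaving out replicate 2 gave 6.10, so its size rests on the lowest wild type values.

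Mnda (ENSMUSG00000026536), named after the human myeloid cell nuclear differentiation antigen, lies farther along the cluster. Its region, chr1:173912927-173913475, holds the whole promoter printed above and has its centre 155 bases from the start. It held 213 and 101 in mdx, against 10 and 7 in wild type. The recovered reads numbered 154 and 87 for mdx, 8 and 14 for wild type. Here the mdx libraries differed 2.11-fold from each other, and the lower was still 10.1 times the higher wild type value. Means were 157.0 ± 79.2 and 8.5 ± 2.12, an 18.5-fold difference with a log2 fold change of 3.98 (SE 0.44). Without mdx replicate 1 the log2 fold change was 3.44, and without mdx replicate 2 it was 4.51.

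Aim2 (ENSMUSG00000037860), the inflammasome sensor, had the smallest difference at its linked region among the PYHIN genes with a linked region. Its linked region, chr1:173350073-173350192, is 119 bases wide and lies 746 bases from the deposited start. It also lies within RefSeq Cadm3, and the RefSeq promoter of Aim2 searched above, which begins at 173420354, lies outside it. It held 19 and 28 in mdx, against 10 and 11 in wild type, from 14, 24, 8 and 22 reads. The groups do not overlap, but each library rests on few reads. The log2 fold change of 1.07 (SE 0.54) did not pass. Inside Aim2, in a region with no linked gene at chr1:173456544-173456806, the values were 58 and 22 in mdx and 0 and 3 in wild type. From 42 and 19 recovered reads against 0 and 6, the log2 fold change was 4.20 (SE 0.86). It passed, but not with a pseudocount of 0.1 or with no filter on low values, and was 3.20 without wild type replicate 1.

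The second region with no linked gene, chr1:173973238-173973397, lies inside Ifi202b, whose product lacks the pyrin domain and restrains Aim2. The value was 28 in mdx replicate 1, 1 in mdx replicate 2 and 0 in both wild type libraries. Its signal rests on the 20 reads of mdx replicate 1, it did not enter the fit, and no fold is given.

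The remaining 2 regions belong to genes outside the family. Cadm3 (ENSMUSG00000005338) encodes a cell adhesion molecule of the nectin-like type, best known from neurons. Its promoter region, chr1:173367447-173368008, held 198 and 130 in mdx and 51 and 67 in wild type, the highest wild type values of the window. The log2 fold change was 1.44 (SE 0.30), a 2.78-fold difference of the means, 164.0 ± 48.1 and 59.0 ± 11.3. This call ended with no filter on low values. Olfr433 (ENSMUSG00000045381) is an olfactory receptor gene at the end of the cluster. Its region, chr1:174040947-174041147, held 43 and 23 in mdx and 0 in both wild type libraries. Against a floor of 3 reads in each wild type library, which is 2.57 scaled reads on average, mdx was at least 12.8-fold higher. The call ended with a pseudocount of 0.1, and in wild type replicate 2 a value of 0 allows 1 read.

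Set against their width, the mdx levels of the regions differed less than their wild type levels. Mean mdx signal per 100 bases was 37.6 at Ifi204, 29.2 at Cadm3, 28.6 at Mnda, 19.7 at Aim2, 16.5 at Olfr433, and 15.3 and 9.12 at the regions inside Aim2 and Ifi202b. In wild type the order was another: 10.5 at Cadm3 and 8.82 at Aim2, then 1.55 at Mnda, 1.01 at Ifi204, 0.57 at the region inside Aim2 and 0 at the other 2. Neighbours in the mdx order such as Cadm3 and Mnda differed by less than the spread between the 2 libraries.

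Within the mdx group, replicate 1 exceeded replicate 2 in 6 of the 7 regions, with Aim2 the exception, against 50.1% of all regions. The ratio of replicate 1 to replicate 2 was 1.10 at Ifi204, 1.52 at Cadm3, 1.87 at Olfr433, 2.11 at Mnda, 2.64 at the region inside Aim2 and 28.0 at that inside Ifi202b. Its median over all tested regions was 1.02. The mdx libraries were thus closest to each other at Ifi204 and farthest apart at the region inside Ifi202b.

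**Figure D3:**
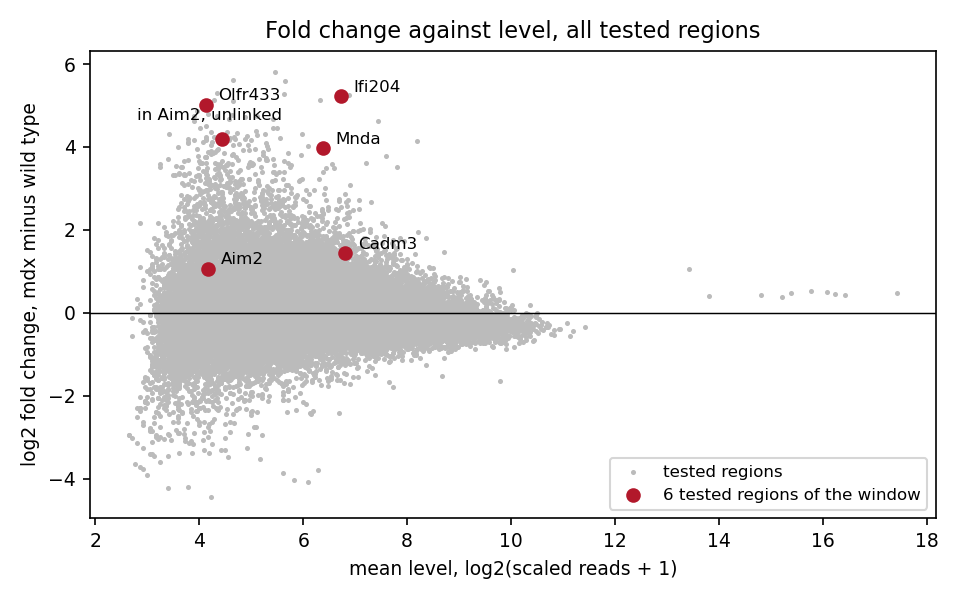
Log2 fold change, mdx minus wild type (vertical axis), against mean level (horizontal axis) for the 33161 tested regions in grey and the 6 tested regions of the window in red. Ifi204, Mnda, Olfr433 and the unlinked region inside Aim2 lie near the upper edge at their levels, between 3.98 and 5.23, while Aim2 and Cadm3 lie at 1.07 and 1.44.

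Higher values in mdx did not stop at the border of the window on the side before Aim2. The nearest region before it, 162.2 kb away at the olfactory receptor gene Olfr1408, held 79 and 21 in mdx and 4 and 3 in wild type (log2 fold change 3.23, SE 0.69). Farther before the window, at 339.0 kb, a region with no gene held 611 and 412 against 121 and 169 (1.80, SE 0.24). Beyond it, the promoter of the phosphatase gene Dusp23 at 666.7 kb was near equal, at 980 and 977 against 950 and 956 (0.04, SE 0.14). Still farther on that side the values went both ways. An unnamed region at 736.4 kb held 146 and 136 against 199 and 192 (-0.47, SE 0.22). Another at 785.7 kb held 105 and 82 against 46 and 56 (0.86, SE 0.31). Neither of them passed. Past the other end of the window the promoter of Fmn2, a formin gene at 401.8 kb, stood at 7 and 16 against 23 and 31 (-1.25, SE 0.56) and did not pass. Fmn2 is not the nearest region on that side. Nearer ones are not reported here, so no extent is given for that side. Farther out, at 1231.7 kb, a region with no gene held 152 and 120 against 16 and 54 (2.15, SE 0.46) and passed as higher. On the side before the window, the regions higher in mdx thus extended past the PYHIN genes, with smaller fold changes than at Ifi204 and Mnda.

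**Figure D4:**
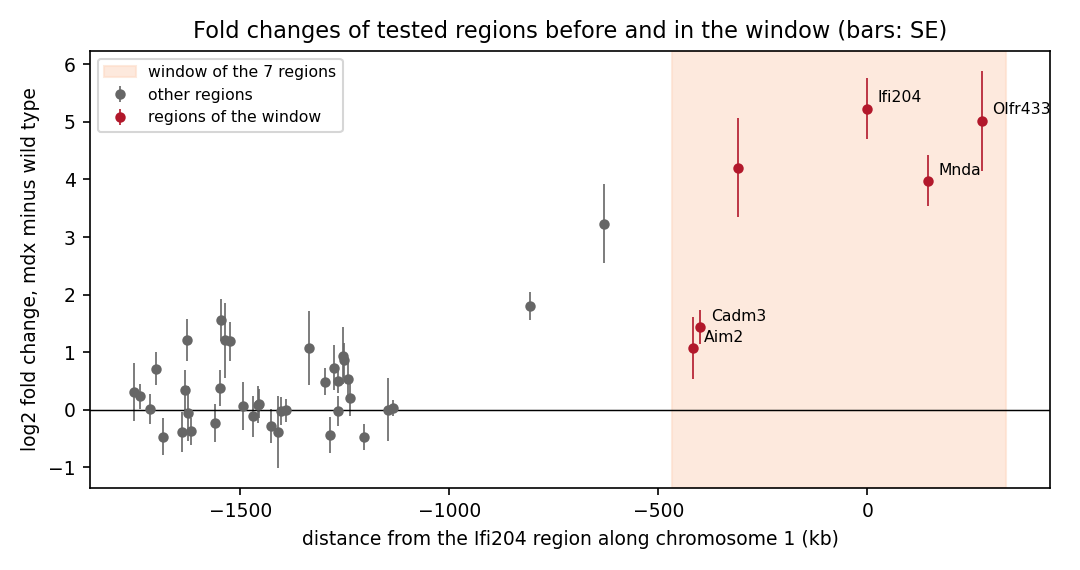
Log2 fold change, mdx minus wild type, with SE bars (vertical axis) for tested regions before and in the window against their distance from the Ifi204 region along chromosome 1 in kb, with the window shaded. Regions of the window, in red, reach from 1.07 to 5.23, the 2 nearest regions before it lie at 3.23 and 1.80, and Dusp23 lies at 0.04.

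Of the 11 regions in the 800 kb before the window, 2 passed as higher, 0 as lower, and the median log2 fold change was 0.50. Both mdx libraries lay above both wild type libraries in 8 of the 11, against 25.8% of all regions, and below both in 1. The same values for the 800 kb after the window are not reported here, so the sides are not compared. On chromosome 1 as a whole 3.37% of 2436 tested regions passed as higher.

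The labels name no strain, so a difference between the groups' mouse strains in the sequence or copy number of this locus and an effect of the mdx genotype cannot be told apart in this design. Among wild type libraries, reads were recovered at Ifi204 (2 and 18), Mnda (8 and 14), Aim2 (8 and 22) and Cadm3 (42 and 136). At the unlinked region inside Aim2 they numbered 0 and 6. At Olfr433 and at the region inside Ifi202b the wild type value was 0 in both. The fold differences of the means were 37.2 at Ifi204, 26.7 at the unlinked region inside Aim2, 18.5 at Mnda, at least 12.8 at Olfr433, 2.78 at Cadm3 and 2.24 at Aim2. Outside the family, the difference was large at Olfr433 and small at Cadm3. At PYHIN genes the only small fold was that of the Aim2-linked region, which also lies within RefSeq Cadm3 and rests on few reads. No cause was tested with these values.

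Other interferon-inducible gene clusters were read in the same way, and 0 of their regions passed, where 4.18% of all tested regions did. With so few regions a count of 0 is near that share, so nothing is read from it. Linked regions were present for the Ifit genes on chromosome 19 (7 regions), the Gbp genes on chromosomes 3 and 5 (8), the Oas genes on chromosome 5 (1) and the Slfn genes on chromosome 11 (2). In limma 4 of these 18 regions had an unadjusted p under 0.05, against 23.0% of all tested regions, and 0 passed with voom, against 5.98% of all. The medians of the log2 fold change were 0.05 for Ifit, 0.15 for Gbp, 0.46 for Oas and 0.23 for Slfn. The promoter of Ifit2, an antiviral protein that binds RNA, held 213 and 228 in mdx and 202 and 225 in wild type. At 2 other regions linked to Ifit2 the values were 98 and 37 against 2 and 33 (2.60, SE 0.88), and 82 and 76 against 18 and 42 (1.48, SE 0.42). The Gbp2 promoter, of an interferon-induced GTPase, stood at 109 and 135 against 65 and 81 (0.73, SE 0.28).

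**Figure D5:**
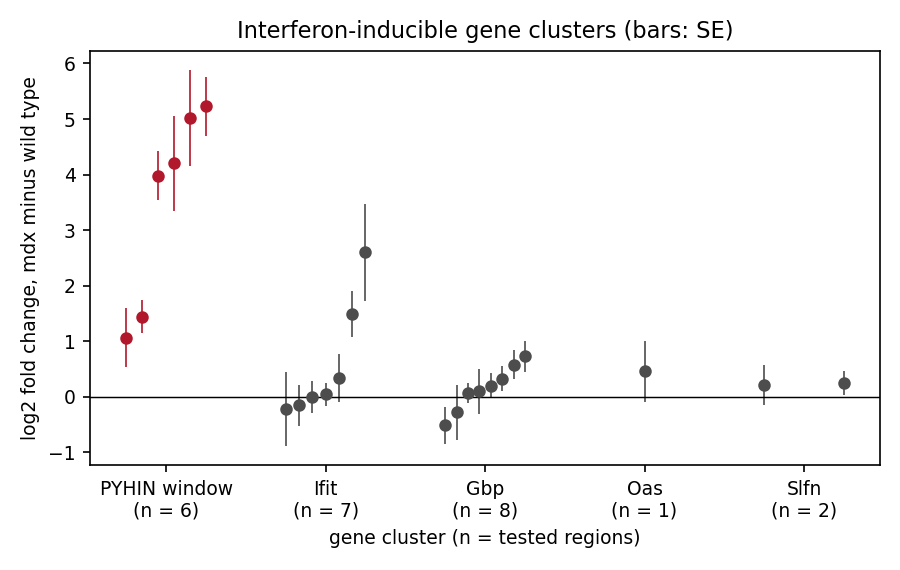
Log2 fold change, mdx minus wild type, with SE bars (vertical axis) for tested regions of 5 interferon-inducible gene clusters, with 1 point per region. The PYHIN window spans 1.07 to 5.23, and its points include Cadm3 and Olfr433, genes outside the family. The Ifit, Gbp, Oas and Slfn regions lie between -0.51 and 2.60. Since only the window was chosen on this contrast, nothing is read from the gap between these ranges.

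Partners and regulators of the PYHIN proteins were followed in lists, by each gene's promoter or else nearest region. In the list of the Aim2 inflammasome and DNA sensing, 10 of 23 listed symbols had a region and all 10 were tested. Among the 23 symbols 2 genes stand under an older and a newer name. In limma 0 of the 10 passed in either direction, where 4.18% of all tested regions did, so nothing is read from this count. An unadjusted p under 0.05 was found for 3, and 1, Casp4, passed with voom, beside whole-table shares of 23.0% and 5.98%. Their median log2 fold change was -0.11. Casp4, the inflammatory caspase of the non-canonical inflammasome, held 47 and 73 in mdx and 10 and 24 in wild type (1.85, SE 0.48). Tmem173, which encodes the adaptor STING through which Ifi204 signals, stood at 30 and 14 against 59 and 33 (-1.07, SE 0.48). Rnaseh2b, a subunit of the nuclease that removes ribonucleotides from DNA, was at 65 and 79 against 138 and 108 (-0.76, SE 0.28). The adaptor Pycard, Casp1 and Gsdmd, which act below Aim2, had 0 linked regions.

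Among interferon receptors and the factors that carry their signal, all 17 listed genes had a tested region. With limma 0 passed, beside 0.691% of tested promoter regions as higher and 1.73% as lower, so nothing is read from this count. Of the 17, 5 had an unadjusted p under 0.05, and 1, Ifngr1, passed as lower with voom. For these 2 measures the whole table has 23.0% and 5.98%. The list's median was -0.37 on the log2 scale, and that of the whole table -0.01. These medians cover unlike sets, since all 17 regions were promoters while the whole table also holds distal regions. Promoters as a class held a smaller share of the scaled reads in mdx than in wild type. Socs3, a feedback inhibitor of cytokine signalling, was at 134 and 168 in mdx and 275 and 233 in wild type (-0.75, SE 0.22). The kinase gene Jak1 stood at 307 and 277 against 445 and 434 (-0.59, SE 0.18). Usp18, an interferon-induced inhibitor of the pathway, stood at 126 and 114 against 73 and 88 (0.57, SE 0.27). Stat2 and Irf9, transcription factors that act together downstream of type I interferon, were at -0.49 and -0.15 on the log2 scale. Scaling choices matter for values this small: the median of all regions moved to 0.19 with promoter medians set equal and to -0.35 with distal medians set equal.

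Markers of immune cells, in which this family is best known, were nearly missing from the table. Of 12 macrophage and myeloid markers 1, Csf1r, had a linked region, at 19 and 21 in mdx against 9 and 15 in wild type, and 11, among them Ptprc, Adgre1, Cd68 and Spi1, had none. The 8 lymphoid markers had 0 linked regions. Of 8 endothelial markers 1 was present, Tek, at 152 and 131 against 131 and 146. All 10 satellite cell markers had a region, with summed values of 1404 and 1470 in mdx and 1780 and 1659 in wild type, and 0 passed (2 at an unadjusted p under 0.05, 0 with voom). Beside this and the marker counts below stand the whole-table shares. In limma 3.30% of tested regions passed as higher, 0.881% as lower, and 23.0% had an unadjusted p under 0.05. With voom 5.98% passed. Pax7, the defining factor of satellite cells, stood at 90 and 103 against 93 and 124. The largest differences in this list were at Cd34, with 53 and 72 against 132 and 87 (-0.79, SE 0.32), and Calcr, with 170 and 178 against 346 and 254 (-0.77, SE 0.22). Fibro-adipogenic markers summed to 1195 and 1053 against 1014 and 1055 over 7 of 9 genes, and 0 passed (2 at an unadjusted p under 0.05, and 1, Osr1, with voom). Osr1 stood at 88 and 100 against 37 and 46 (1.17, SE 0.32), and Col1a2 at 137 and 123 against 72 and 69 (0.87, SE 0.27). These were the highest of the list, and its members did not move together. Pdgfra was lower, at 84 and 77 against 97 and 102 (-0.30, SE 0.27). Dpt, which made up most of the sum, held 768 and 626 against 732 and 732 (-0.08). Col3a1, Col1a1 and Dcn were at 0.66, 0.22 and 0.015. Smooth muscle and pericyte markers summed to 338 and 258 against 226 and 277 over 4 of 6 genes, with 0 passing by any of these counts. Muscle fibre markers summed to 397 and 378 against 233 and 296 over 3 of 7 genes, of which Casq1 passed as higher, at 97 and 70 against 24 and 31 (1.56, SE 0.36). The part of these other cell types in the values of the window was not tested.

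Promoters with profiles like those of Ifi204 and Mnda were sought among the 10270 named promoter regions outside the window. Likeness was the Euclidean distance over log2(value + 1) of the 4 libraries. Nearest to Ifi204 were Gpr39 (distance 2.51; 126 and 112 in mdx, 9 and 26 in wild type), Prss23 (2.51) and Edil3 (2.56). Nearest to Mnda were Gpr39 again (1.92), S100a4 (1.96; 98 and 48 against 13 and 17) and Gm42674 (2.03). A distance of 2 corresponds to each library differing by 1 on the log2 scale, so even the nearest promoters were not close.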

How the data were processed

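Quiescent satellite cells were profiled by ATAC-seq in 2 mdx and 2 wild type libraries. The build mm10 and the tools MACS2 2.1.0, STAR 2.5.3a, DESeq, DESeq2, Trimmomatic 0.33 and Picard 2.9.0 are named per the submitters' processing notes. As to their roles, to reads with several matches and to how peaks were called, the method is not given in the sources used here. Values deposited by the authors are treated as a score: they are whole numbers that skip the values a multiplied and rounded read number would skip (111, 56 and 73 skipped values up to 400 in mdx replicates 1 and 2 and wild type replicate 1, with 0 values on a skip). The deposited fraction of each region in the gene body was not used. The authors' coordinates are printed as given, and whether starts count from 0 is not stated.

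Regions that reached 10 in 2 or more libraries, 33161 in number, were fitted on log2(value + 1) by limma-trend (limma 3.58.1, R 4.3.3) with the group and no covariate. Adjusted p is Benjamini-Hochberg over these. Fold changes on this scale understate low regions. A region counts as a promoter where it comes within 1 kb of its gene's start. RefSeq positions overlapped for 99.9% of 10208 shared symbols.

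The window, the gene lists and the rules for named genes were chosen with earlier results of these data known. Within the window, the value in every library is given for Ifi204, Mnda, regions past the threshold and those with an absolute log2 fold change of at least 1. From each of the 2 pathway lists those that passed are named, or else the 3 with the largest change; other genes of these lists and the cell type markers named were picked with their values known. Alternatives were the pseudocount, the filter, 4 scalings, voom, a replicate block and 1 library left out at a time. Nothing in the labels ties a library to an animal, so the errors given may hold technical spread only. Intervals for counting error are not given, and depth is stated as reads recovered. Results of 2 genes, and those that rest on them, are not reported here.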

Additional observations from a re-analysis of the deposited data

How the results depend on the processing

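The count of 5 regions of the window past the threshold as higher, and 0 as lower, was the same under 8 of the 11 alternatives that kept all 4 libraries. It was 3 with a pseudocount of 0.1, where Olfr433 and the unlinked region inside Aim2 no longer passed. It was also 3 with no filter on low values, where Cadm3 and that unlinked region no longer passed, and with a mean value of at least 50, where 3 regions were tested. The median log2 fold change of 4.09 went to 2.79 with a pseudocount of 5, which shrinks low values by construction. It ran from 3.48 to 4.70 over the fits that left out 1 library each. In those fits 0 of 33161 regions passed anywhere in the genome, so they decide no call. Of 87 log2 fold changes of single regions under the alternatives 0 changed sign. In each region both mdx values lay above both wild type values. Leaving out a library, or changing the pseudocount, filter or block, therefore could not change a sign, and nothing is read from this count.

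The replicate numbers are shared by the groups, and the labels do not say that they pair the libraries. With the replicate number as a block, 5 regions of the window passed as higher and the median was 4.09, as without it, while 2108 regions of the table passed as higher and 653 as lower, against 1095 and 292. Differences between replicates 1 and 2 correlated at -0.109 between the groups over 33161 regions. With crossed pairing, added after the data were seen, 5 regions of the window passed and 3394 and 2067 in the table. Depth limits Aim2, which rests on 8 to 24 reads per library, and the regions at 0 in wild type.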
